A study of Mus musculus with 6 samples.

Results

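Pax2, Pax8, Lhx1, Emx2, Hnf4a, Irx1, Tfap2b and Foxi1 encode transcription factors that build the nephron in the embryo and that the adult tubule still transcribes. They were taken as the 8 genes whose name, in the array files or through the RefSeq accession of the probe, was 1 of these symbols, and all 8 were among the 22741 genes tested. Their probes numbered 17 of the 56599 used, and 14 of the 17 were well above background on all 6 arrays. The RNA came from renal cortex of diabetic male C57BL/6 mice on 1-colour Agilent arrays, 3 arrays from wild-type (WT) mice and 3 from C3aR-/- mice, which lack the receptor for the complement fragment C3a. Both groups ate a diet with 60% of its calories from fat from 8 weeks of age, received streptozotocin, a toxin of insulin-producing beta cells, at 60 mg/kg on each of 3 days after 4 weeks of that diet, and were killed 26 weeks later. Non-diabetic mice were not analysed here, so the comparison is between genotypes within diabetes. Which stretch of the receptor gene was removed, and whether each replicate was a separate animal, the sources used here do not say, and a p-value below therefore covers only how far these samples spread.

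Pax2, Pax8 and Lhx1 act together in the intermediate mesoderm, where they specify the nephric duct and the kidney that forms around it. Emx2 is a homeobox factor of the ureteric bud, without which the kidney does not form. As nephrons mature, further factors divide the tubule: Hnf4a drives proximal tubule maturation, Irx1 marks the middle segments, Tfap2b is needed for the distal convoluted tubule, and Foxi1 makes the acid- and base-secreting intercalated cells of the collecting system.

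Below are 5 of the 17 probe sequences, shown because they lie in coding sequence and show which part of the message a reading rests on. The Pax2 probes A_55_P2148518 and A_55_P2075127 gave no signal well above background on any array, and A_55_P2148518 lies in the DNA-binding paired domain. The Pax8 probe A_66_P118214 lies in the corresponding paired domain, the Hnf4a probe A_52_P69656 in the DNA-binding zinc finger region, and the Lhx1 probe A_55_P2905111 at the end of the coding sequence. Each is given 5′ to 3′ as it stands on the array, in mRNA sense.
Pax2 A_55_P2148518, chr19:44835420-44835479 (mm9, + strand): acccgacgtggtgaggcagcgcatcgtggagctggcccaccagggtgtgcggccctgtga
Pax2 A_55_P2075127, chr19:44909895-44909954 (mm9, + strand): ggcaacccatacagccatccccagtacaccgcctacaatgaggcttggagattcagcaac
Pax8 A_66_P118214, chr2:24298549-24298608 (mm9, − strand): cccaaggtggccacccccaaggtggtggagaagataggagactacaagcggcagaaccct
Hnf4a A_52_P69656, chr2:163378302-163378361 (mm9, + strand): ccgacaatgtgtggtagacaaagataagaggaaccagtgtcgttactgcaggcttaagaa
Lhx1 A_55_P2905111, chr11:84333052-84333111 (mm9, − strand): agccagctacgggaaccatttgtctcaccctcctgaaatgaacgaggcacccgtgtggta

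Levels below are log2 signals relative to the 75th percentile of each array, differences are C3aR-/- minus WT on that log2 scale, and the error after each difference is its standard error from limma with 3 arrays in each group. A level says nothing about the level of another gene, since each probe binds with its own efficiency. In bulk cortex, fewer cells of a type and less RNA per cell cannot be told apart. The targeted gene C3ar1 read lower in C3aR-/-, by -1.10 ± 0.30 with no overlap between the groups, but did not pass adjustment over all genes (limma, adjusted p = 0.931). Array correlations lay between 0.981 and 0.995, and between 58.6% and 63.0% of probes per array were well above background. WT replicate 1 and C3aR-/- replicate 2 were the arrays farthest apart on the leading principal component, which held 43.1% of the variance, so results that rest on these end arrays are given with and without them. Markers of leukocytes and of injured tubules mostly read lower in C3aR-/- on the same arrays, where 56.6% of all genes read higher. None of them passed adjustment, and the lists were not tested as sets. Of 11 T cell markers 10 were lower in C3aR-/- (list means -0.99 to -0.43 in WT and -1.99 to -1.36 in C3aR-/-), of 12 macrophage markers 12 were lower (1.63 to 2.32 and 1.1 to 1.64), and of 10 injured tubule markers 10 were lower (3.26 to 4.24 and 2.73 to 3.36). Of 5 B cell markers 5 were lower, of 8 endothelial markers 7 were higher and of 9 fibroblast and mural markers 5 were lower. Only 3 of 5 adipocyte, 2 of 5 adrenal and 2 of 5 urothelial markers were well above background on enough arrays to be tested, and the adipocyte means ranged from -5.71 to -0.99 within WT. The segment markers Lrp2, Umod, Slc12a3 and Nphs1 were well above background on all 6 arrays, which shows kidney tissue but cannot tell cortex from whole kidney. The defining markers Cd3e, Adgre1 and Havcr1 were too, and the part of these cells in the results below was not tested.

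None of the 8 factors passed the test between genotypes. Over all genes limma called 0 at an adjusted p under 0.05 (0%), and 1111 genes (4.89%) had an unadjusted p under 0.05, of which 0 were among the 8. Pax8, Lhx1, Hnf4a, Foxi1 and Tfap2b read higher in C3aR-/- and Pax2, Emx2 and Irx1 lower, so 5 of 8 stood above 0, against 56.6% of all genes. The differences ran from -0.15 for Emx2 to 0.22 for Lhx1, with a median of 0.085, where the median of all genes was 0.026. Leaving out WT replicate 1 put the median of the 8 at 0.026, leaving out WT replicate 2 at 0.053 and leaving out C3aR-/- replicate 3 at 0.054. The intervals bound the size of a difference more tightly for some factors than for others. For Tfap2b the 95% interval of C3aR-/- over WT ran from 0.890-fold to 1.30-fold and for Emx2 from 0.749-fold to 1.09-fold, while for Irx1 it ran from 0.639-fold to 1.52-fold.

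**Figure D1:**
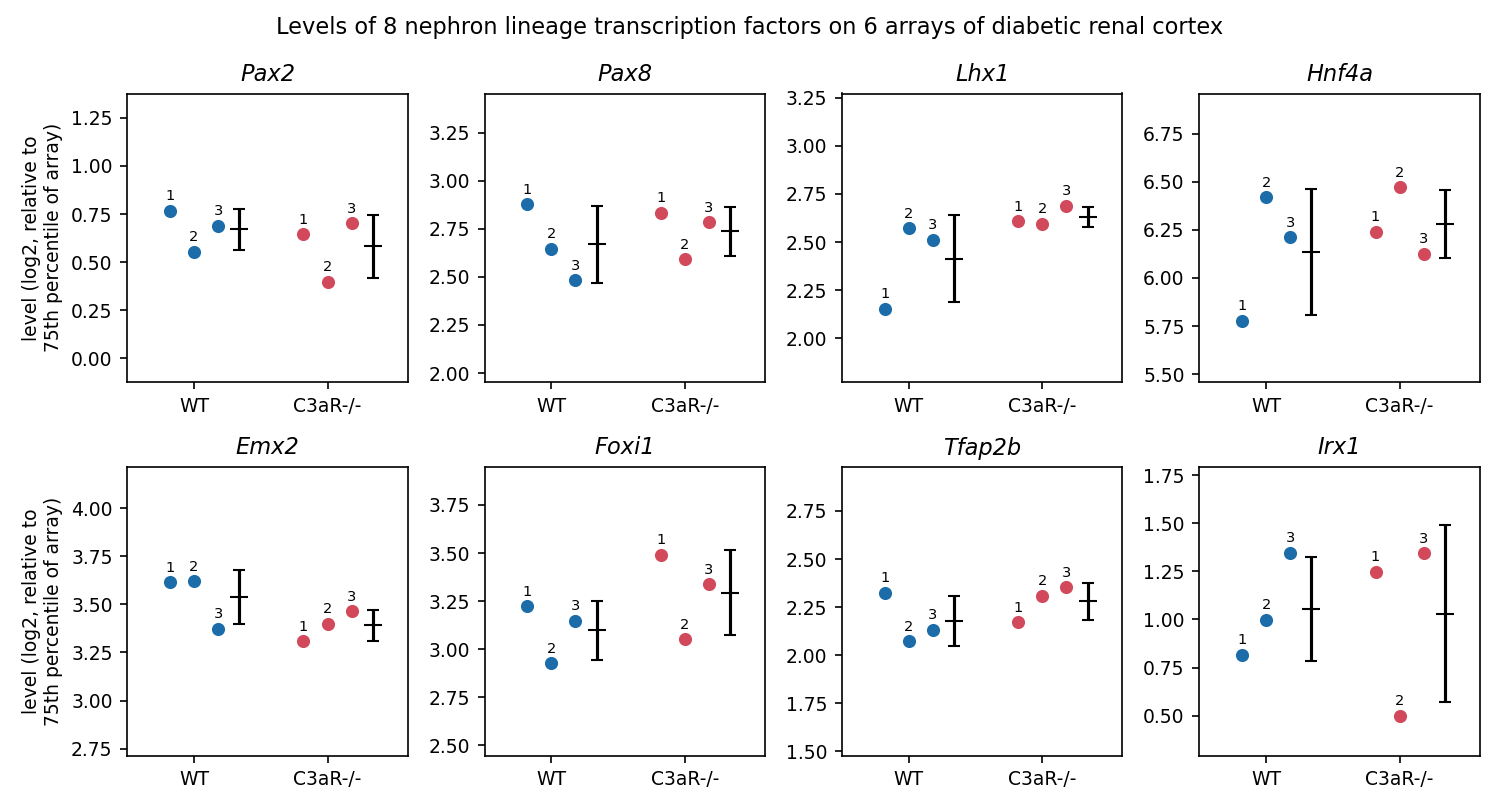
Level of each of the 8 factors on each array, as log2 signal relative to the array's 75th percentile on the y axis, by genotype on the x axis; points are arrays with their replicate number, and bars are the mean ± SD over 3 arrays. Every panel spans the same log2 range, and only the Lhx1 points of the groups do not overlap, WT replicate 2 at 2.57 and C3aR-/- replicate 2 at 2.59 being the closest.

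Pax2, whose protein binds DNA through a paired domain and which adult kidneys keep mainly in the collecting duct, read 0.77, 0.55 and 0.69 in WT and 0.65, 0.40 and 0.70 in C3aR-/-. The groups overlapped, and replicate 2 of each genotype was the lowest of its group. The difference was -0.09 ± 0.12 (limma, unadjusted p = 0.499, adjusted p = 0.939), with a 95% interval from -0.38 to 0.21. This reading comes from a single probe, A_66_P118814 at chr19:44911445-44911504 (mm9, + strand). The other 3 Pax2 probes, the coding ones shown above and A_55_P2075125 at chr19:44871124-44871183, were well above background on 0 of 6 arrays. Pax2 therefore has no second measured probe. The sign of its difference rests on the end arrays, since it was 0.0039 without C3aR-/- replicate 2 and 0.053 without both.

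Pax8, the paralog of Pax2 that is transcribed along most of the tubule epithelium, read 2.88, 2.65 and 2.48 in WT and 2.83, 2.59 and 2.79 in C3aR-/-. All C3aR-/- readings lay inside the WT range. The difference was 0.07 ± 0.14 (adjusted p = 0.958), and without WT replicate 3, the lowest array, it was -0.026. The probe used lies at chr2:24276147-24276206 (mm9, − strand). The paired domain probe A_66_P118214 differed by 0.01 ± 0.14 and the probe A_55_P2716701, at chr2:24327524-24327583, by 0.16 ± 0.12, so the 3 probes gave the same sign at sizes within their errors.

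Lhx1, a LIM-homeodomain factor of the nephric duct and the early nephron, read 2.15, 2.57 and 2.51 in WT and 2.61, 2.59 and 2.69 in C3aR-/-. Every C3aR-/- array stood above every WT array, though the closest readings, 2.57 and 2.59, were almost level and WT replicate 1 stood alone at the bottom. It was the only 1 of the 8 factors whose groups did not overlap, and 9.85% of all genes did the same in 1 direction or the other. The difference was 0.22 ± 0.14, or 1.16-fold, with a 95% interval from 0.928-fold to 1.46-fold (limma, unadjusted p = 0.155, adjusted p = 0.931). Over the arrays left out in turn it lay between 0.089 and 0.30, the lowest being the value without WT replicate 1.

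The 2 other Lhx1 probes also read higher in C3aR-/-. A_66_P135967, at chr11:84331533-84331592 (mm9, − strand), read 0.48, 0.75 and 0.67 in WT and 0.97, 1.03 and 1.09 in C3aR-/-, a difference of 0.39 ± 0.11. The lowest C3aR-/- reading, 0.97, stood clear of the highest WT reading, 0.75. In a fit of all 34778 kept probes its unadjusted p was 0.0118 and its adjusted p 0.947 (limma), and it was the single member probe of 14 with an unadjusted p under 0.05, where 4.68% of all probes had one. The remaining probe, A_52_P652336 at chr11:84331888-84331947, read 0.14, 0.59 and 0.63 in WT and 0.57, 0.61 and 0.72 in C3aR-/-, with overlap and a difference of 0.18 ± 0.16.

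Emx2 read 3.61, 3.62 and 3.37 in WT and 3.31, 3.40 and 3.47 in C3aR-/-. WT replicates 1 and 2 stood above all C3aR-/- arrays and WT replicate 3 lay among them. At -0.15 ± 0.11 (adjusted p = 0.931) it had the most negative difference of the 8. The sign was kept under all 19 other settings, from -0.23 to -0.10, though several of these left the difference unchanged by construction. Its single probe lies at chr19:59539650-59539709 (mm9, + strand).

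**Figure D2:**
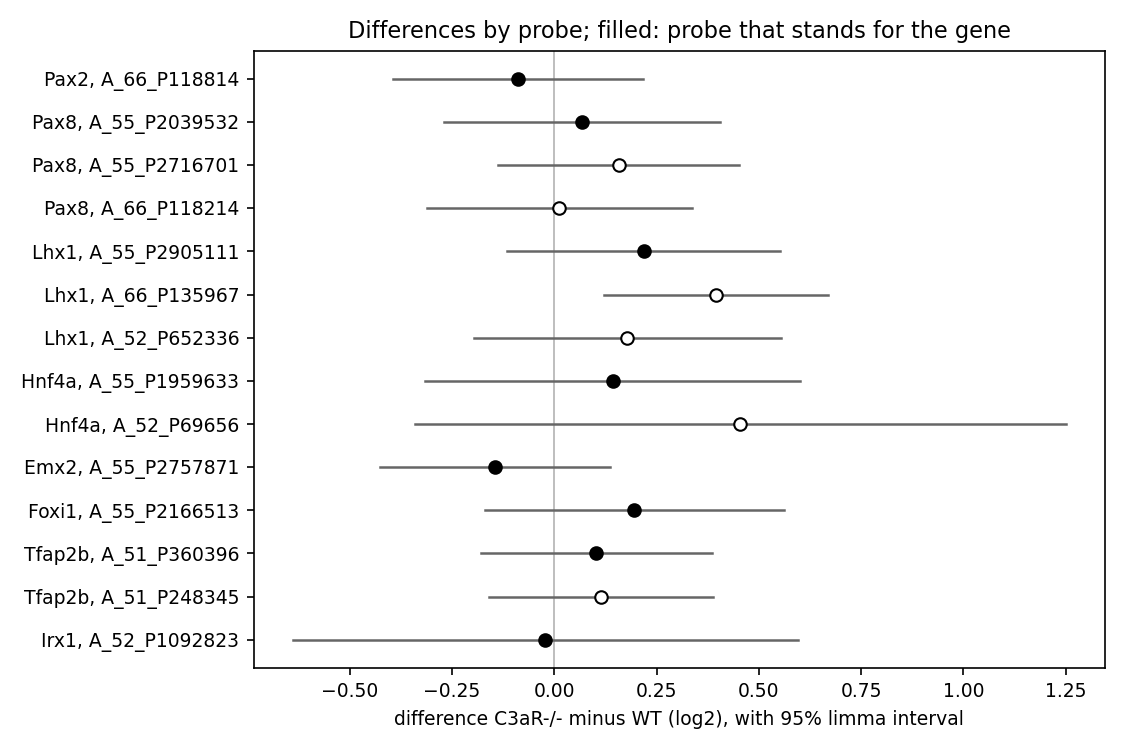
Difference between C3aR-/- and WT for each of the 14 member probes well above background, on the log2 x axis, with the 95% limma interval as a line; filled points are the probes that stand for the gene and open points the other probes. Probes of 1 gene lie on the same side of 0, though Pax8 probe A_66_P118214, at 0.01, lies almost on it. The interval of Lhx1 probe A_66_P135967, at 0.39, is the only one that does not reach 0.

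Hnf4a, a nuclear receptor that in adult kidney is largely a proximal tubule gene, read 5.78, 6.42 and 6.21 in WT and 6.24, 6.47 and 6.13 in C3aR-/-. WT replicate 1 was the lowest of the 6 arrays and C3aR-/- replicate 2 the highest, and the other arrays of the groups were mixed. The difference was 0.14 ± 0.19 (adjusted p = 0.935). It was -0.04 without WT replicate 1 and -0.13 without both end arrays. The probe used lies at chr2:163398548-163398607 (mm9, + strand). The DNA-binding region probe shown above read -1.44, -0.15 and -0.51 in WT and -0.23, -0.0024 and -0.50 in C3aR-/-, with the same array lowest and a difference of 0.45 ± 0.33.

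Hnf4a followed the proximal tubule genes from array to array. The list of 40 such genes, which holds transporters and enzymes such as Lrp2 and Slc5a2, had means of 3.67, 4.69 and 4.45 in WT and 4.51, 4.97 and 4.40 in C3aR-/-, in the same rank order as Hnf4a. The leading principal component put the 6 arrays in that order too, so a link to this list cannot be told apart from it. Across the 6 arrays Pearson's r was 0.985 (two-sided exact permutation p = 0.00139, which is as low as 720 orders of the arrays can go) and Spearman's rho was 1.0 (exact permutation p = 0.00278). Without the 2 arrays farthest from the median of the list, WT replicate 1 and C3aR-/- replicate 2, r was 0.994 over 4 arrays. This relation was chosen after the values were seen, and of the 144 relations between 8 factors and 18 lists none passed Benjamini-Hochberg adjustment. The adjusted p of this one was 0.2, and 13 had an unadjusted permutation p under 0.05. A single relation at the lowest p that 720 orders allow is adjusted to 0.2. The adjustment over 144 relations therefore could not pass any relation standing alone, and its failure says little. Among single genes, 26 of the 40 proximal tubule genes had r above 0.9 with Hnf4a (65.0%), against 1475 of 22740 other genes (6.49%). The sodium-dicarboxylate transporter gene Slc13a3, at r = 0.990, was the nearest of the lineage lists. Over the 4 arrays of slide row 1 r was 0.943, and row 2 holds only 2 arrays.

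The list itself read higher in C3aR-/- in 38 of 40 genes, with a median of 0.33 and no member at an unadjusted p under 0.05. Slc34a3, a phosphate transporter, differed by 1.23 ± 0.60 and Ass1, argininosuccinate synthase, by 0.50 ± 0.22. Leaving out WT replicate 1 put the median at 0.087, leaving out C3aR-/- replicate 2 at 0.12, leaving out WT replicate 2 at 0.51, array weights at 0.0091 and leaving out both end arrays at -0.094, so its direction, like that of Hnf4a, rests on the end arrays. Injured tubule markers ran against Hnf4a (r = -0.911, rho = -0.886, exact permutation p = 0.0208, adjusted 0.436), but over the 4 arrays left without WT replicate 1 and C3aR-/- replicate 2 r was -0.258, so that relation rests on those arrays, and in slide row 1 r was -0.616. Pax2 ran against the proximal list in rank order (r = -0.867, rho = -1.0, exact permutation p = 0.0319 for r, adjusted 0.436, and r = -0.999 over the 4 arrays of slide row 1). Its order was thus also that of the leading principal component, reversed.

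**Figure D3:**
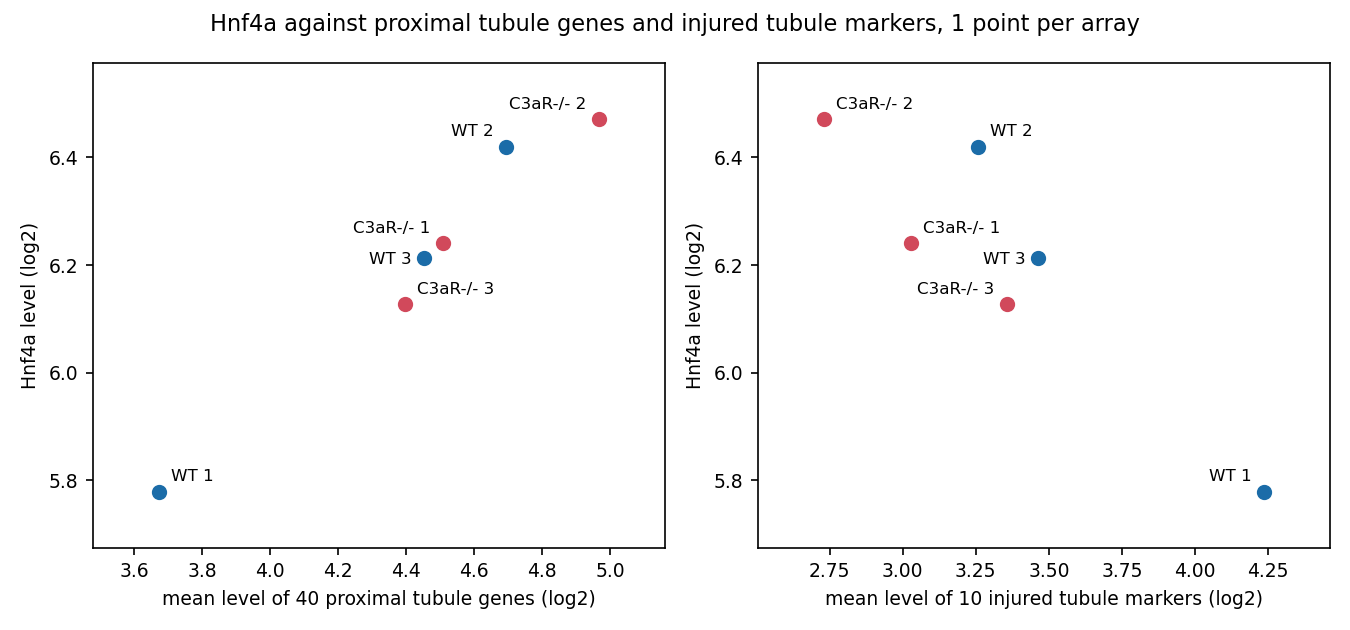
Hnf4a level (log2, y axis) against the mean log2 level of 40 proximal tubule genes (left, x axis) and of 10 injured tubule markers (right, x axis), 1 point per array, WT in blue and C3aR-/- in red with replicate numbers. On the left the arrays lie in 1 rank order from WT 1, at 3.67 and 5.78, to C3aR-/- 2, at 4.97 and 6.47; on the right WT 1 lies apart at 4.24.

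Irx1, an Iroquois homeobox factor of the middle nephron segments, read 0.82, 0.998 and 1.35 in WT and 1.25, 0.50 and 1.34 in C3aR-/-. Both the lowest and nearly the highest reading came from C3aR-/-, and the groups overlapped throughout. Its difference of -0.02 ± 0.26 (adjusted p = 0.994) was the smallest of the 8, and its spread within groups (SD 0.378) the widest, at percentile 84.3 of all genes. Without C3aR-/- replicate 2 the difference was 0.24. Its single probe lies at chr13:72095735-72095794 (mm9, − strand). Of 18 loop of Henle genes 15 were higher and 3 lower, with a median of 0.11 (0.060 when WT replicate 1 was left out and 0.063 when C3aR-/- replicate 3 was) and none at an unadjusted p under 0.05, among them Egf, the epidermal growth factor precursor (0.60 ± 0.40), and Ppp1r1a (0.23 ± 0.18).

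Tfap2b, an AP-2 factor, read 2.32, 2.07 and 2.13 in WT and 2.17, 2.31 and 2.35 in C3aR-/-. WT replicate 1 lay among the C3aR-/- arrays. The difference was 0.10 ± 0.11 (adjusted p = 0.931), and under the 19 other settings, not all of which can change it, it stayed between 0.051 and 0.18. The probe used lies at chr1:19228555-19228614 (mm9, + strand), and the second probe, A_51_P248345 at chr1:19224486-19224545, gave 0.11 ± 0.11. The distal convoluted tubule list read higher in 16 of 21 genes, with a median of 0.21 and none at an unadjusted p under 0.05. Trpm6, a magnesium channel, differed by 0.30 ± 0.13 and the calcium-binding protein gene Calb1 by 0.35 ± 0.15. Leaving out WT replicate 1 put that median at 0.084, leaving out C3aR-/- replicate 2 at 0.092 and leaving out both at 0.024.

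Foxi1, a forkhead factor, read 3.22, 2.93 and 3.15 in WT and 3.49, 3.05 and 3.34 in C3aR-/-. C3aR-/- replicates 1 and 3 stood above all WT arrays, and C3aR-/- replicate 2 lay among them. The difference was 0.20 ± 0.15 (unadjusted p = 0.237, adjusted p = 0.931), positive in both slide rows (0.23 in row 1 and 0.12 in row 2). Without WT replicate 1 and C3aR-/- replicate 2 it was 0.38 (limma, unadjusted p = 0.0393), and with array weights 0.38 (limma, unadjusted p = 0.0228). No gene passed adjustment in either fit. In these fits 2025 and 2115 of the 22741 genes had an unadjusted p under 0.05, against 1111 in the main fit. In the other direction the Foxi1 difference was 0.097 without C3aR-/- replicate 1 (limma, unadjusted p = 0.573) and 0.11 without WT replicate 2 (limma, unadjusted p = 0.536). Its single probe lies at chr11:34104352-34104411 (mm9, − strand).

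Intercalated cell genes, which Foxi1 is known to control, were higher in 14 of 18 and lower in 4, with a median of 0.14. Their list means were 2.13, 2.19 and 2.18 in WT and 2.32, 2.26 and 2.31 in C3aR-/-, so the groups did not overlap. In 7 of 18 (38.9%) every C3aR-/- array stood above every WT array, where 5.66% of all genes did. So did 5 of 21 distal convoluted tubule genes (23.8%) and 2 of 14 principal cell genes (14.3%). The share was 2.5% for proximal tubule genes and 0% for loop of Henle genes. Slc26a4, which encodes the chloride-bicarbonate exchanger pendrin, differed by 0.27 ± 0.10 (unadjusted p = 0.0290, adjusted p = 0.931). Its arrays read 4.39, 4.45 and 4.31 in WT and 4.70, 4.71 and 4.57 in C3aR-/-. The ammonia transporter genes Rhcg (0.29 ± 0.11) and Rhbg (0.27 ± 0.11, named after its value was seen) were the other members with an unadjusted p under 0.05, and no member passed adjustment. Kit, a receptor tyrosine kinase, ran the other way at -0.22 ± 0.11 without overlap and was named after its value was seen. The median lay between 0.11 and 0.18 over the arrays left out in turn. Across the arrays Foxi1 and the mean of these genes gave r = 0.580 and rho = 0.486 (exact permutation p = 0.236 for r, adjusted 0.645), and r = 0.686 over the 4 arrays left without WT replicate 1 and C3aR-/- replicate 1. Lhx1, named here after its value was seen, ran closer to this list. It gave r = 0.797 and rho = 0.943 (exact permutation p = 0.00556 for r, adjusted 0.3). Of the 18 genes 0 had r above 0.9 with Foxi1, where 0.734% of all genes did, a share near the background, and their median r was 0.386. The list nearest to Foxi1 was that of podocyte genes, named here after its value was seen. It gave r = 0.961 and rho = 0.943 (exact permutation p = 0.00694 for r, adjusted 0.3). Its r was 0.909 without the 2 farthest arrays and 0.978 over the 4 arrays of slide row 1. Of the 15 podocyte genes 2 (13.3%) had r above 0.9 with Foxi1, and their median r was 0.550.

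The family list holds paralogs of the 8 factors. Of 29 listed, 17 were tested, and 12 were not well above background on enough arrays: Pax1, Pax3, Pax4, Pax6, Pax7, Lhx4, Lhx9, Foxi2, Tfap2c, Tfap2d, Tfap2e and Irx6. Of the 17, 7 were higher and 10 lower, with a median of -0.05. That median had no stable sign, since it was 0.024 without WT replicate 3, 0.0090 without C3aR-/- replicate 2, -0.00028 without C3aR-/- replicate 1, -0.016 without WT replicate 2 and -0.089 without WT replicate 1. Lhx2 read -0.86, -1.5 and -0.88 in WT and -1.48, -1.88 and -1.48 in C3aR-/-, a difference of -0.53 ± 0.21. It was the single paralog with an unadjusted p under 0.05 (limma, unadjusted p = 0.0440, adjusted p = 0.931). WT replicate 2 lay among the C3aR-/- arrays. Emx1 read 1.02, 1.29 and 1.38 in WT and 1.51, 1.5 and 1.45 in C3aR-/-, without overlap, at 0.26 ± 0.12, the opposite sign to its paralog Emx2; neither passed the test. Hnf4g, the paralog of Hnf4a, differed by 0.37 ± 0.34. The Iroquois genes Irx2, Irx3, Irx4 and Irx5 differed by -0.13, -0.04, -0.05 and -0.26; they and Hnf4g were named after their values were seen.

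Other transcription factors of the kidney ran in both directions, with more of them higher in C3aR-/-. Of 49 tested of 51 listed, 34 were higher and 15 lower, with a median of 0.02 that lay between 0.00084 and 0.11 over the arrays left out in turn. Sox9, a factor of regenerating tubule cells, read -0.01, -0.10 and -0.13 in WT and -0.60, -0.62 and -0.82 in C3aR-/-, a difference of -0.60 ± 0.10 (unadjusted p = 0.000980, adjusted p = 0.920). Sox9 is also 1 of the 10 injured tubule markers. Klf15, a podocyte and metabolic regulator, differed by 0.57 ± 0.19 (unadjusted p = 0.0245), without overlap, and the estrogen-related receptor gene Esrrg, named after its value was seen, by 0.29 ± 0.10 (unadjusted p = 0.0275). Wt1, of podocytes, differed by -0.01 ± 0.16, Gata3, of the collecting duct, by 0.02 ± 0.10, and Tfcp2l1, of the distal nephron and collecting duct, by 0.02 ± 0.11; these 3 were named for their roles after their values were seen. The 2 genes Six2, the nephron progenitor factor, and Hes5 were not tested.

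Nephric duct signalling genes, the ligands, receptors and targets through which the duct branches, read lower in 13 of 23 and higher in 10, with a median of -0.08; the receptor genes Ret and Gfra1 were not tested. The list means were -0.61, -0.73 and -0.62 in WT and -0.77, -0.81 and -0.74 in C3aR-/-, without overlap, and the median was 0.0042 with normexp correction, 0.0088 without C3aR-/- replicate 2 and 0.019 with array weights. Wnt7b, a collecting duct Wnt ligand, differed by -0.62 ± 0.28. Principal cell genes were higher in 11 of 14, with a median of 0.11 (0.069 without WT replicate 2), led by Scnn1a, the alpha subunit of the epithelial sodium channel (0.27 ± 0.09, unadjusted p = 0.0254), while Krt18 differed by -0.41 ± 0.20. Podocyte genes were higher in 10 of 15 (median 0.10), among them Vegfa (0.38 ± 0.15, unadjusted p = 0.0364) and nephrin, Nphs1 (0.26 ± 0.13). No gene of any list passed adjustment over all genes.

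**Figure D4:**
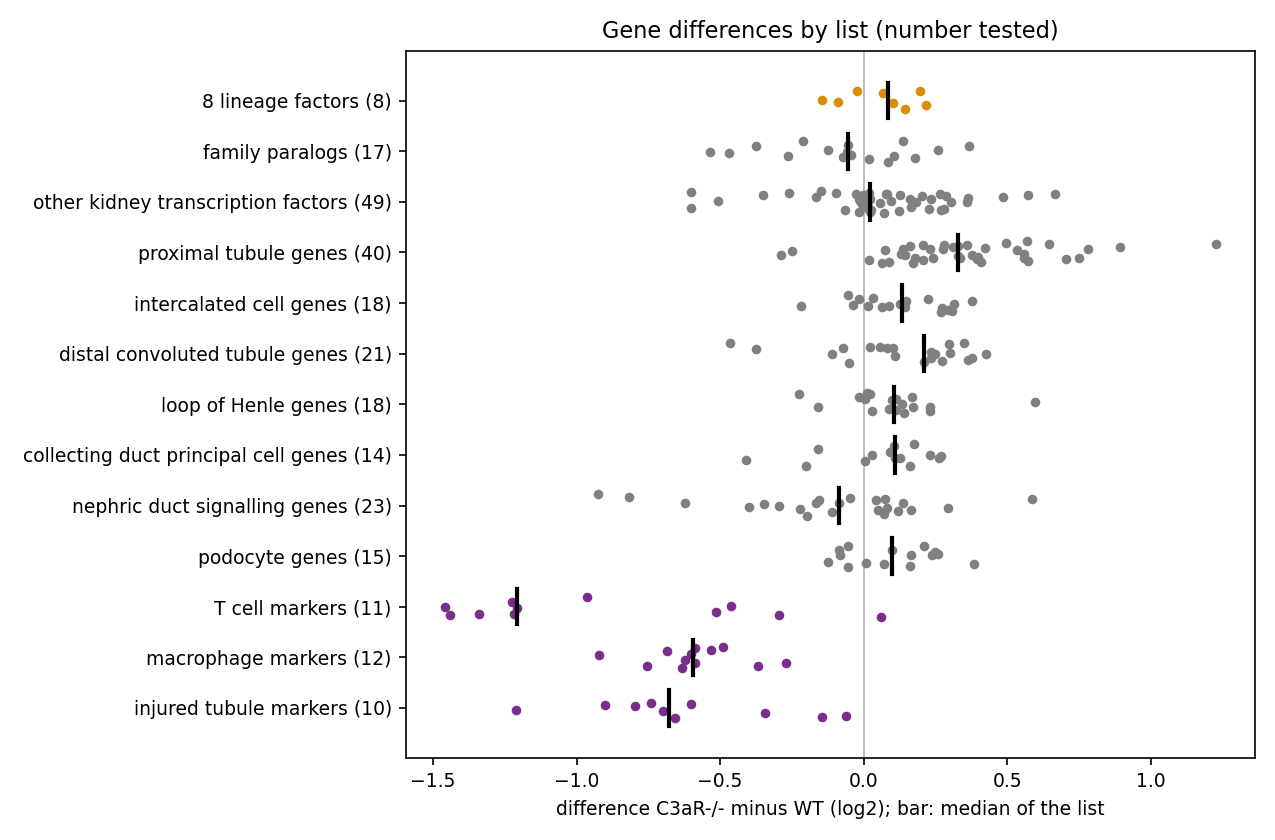
Difference between C3aR-/- and WT (log2, x axis) for each tested gene, by list on the y axis with the number tested; points are genes (orange the 8 factors, grey other lineage lists, purple cell markers, with random vertical spread) and black bars list medians. The 8 factors lie between -0.15 and 0.22, the proximal tubule median is 0.33 and the T cell marker median -1.21.

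The 8 factors did not share 1 pattern across arrays. Among pairs, Pax2 and Hnf4a ran most strongly against each other (r = -0.864) and Lhx1 ran with Hnf4a (r = 0.756), over 6 arrays that share normalization, as a description only. The number of genes with r above 0.9 differed widely, from 51 for Tfap2b and 86 for Emx2 to 678 for Pax2, 699 for Pax8 and 1475 for Hnf4a, with Foxi1 at 167, Irx1 at 229 and Lhx1 at 512. By the same measure the closest genes were Fmo2 and Relt for Hnf4a (r = 0.998 and 0.997), Grin3a and Gm20743 for Lhx1 (0.999 and 0.996), Rab2b and Ptbp2 for Pax8 (0.997 and 0.996), and Sult2a3 and Zfp128 for Foxi1 (0.999 and 0.998). For Pax2 they were 1110032F04Rik and ENSMUST00000166883 (both 0.994), for Emx2 ENSMUST00000191444 and Snx19 (0.989 and 0.988), for Tfap2b Ift88 and Trim5 (0.987 and 0.985), and for Irx1 ENSMUST00000121065 and F830004D09Rik (both 0.990). Within the lineage lists the closest were Elf3 for Pax2 (0.983), Hmx3 for Pax8 (0.978), Egf for Lhx1 (0.965), Ptpro for Foxi1 (0.978), Hmx2 for Irx1 (0.968), Scnn1g for Tfap2b (0.920) and Nedd4l for Emx2 (0.837). For each of the 8 the closest of the 22740 other genes thus had r of at least 0.987 over the 6 arrays. With so few arrays, the best of so many genes can reach such an r without any link. The closest genes and the counts above 0.9 are therefore a description only.

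Slide position gave a second view of the 8 differences. WT replicate 1 and C3aR-/- replicate 3 lay in slide row 2 and the other 4 arrays in row 1, so row 2 compares 1 array with 1. Pax2, Lhx1, Hnf4a, Emx2, Foxi1 and Tfap2b kept their sign in both rows. The Lhx1 difference was 0.06 in row 1 and 0.53 in row 2, and that of Hnf4a 0.04 and 0.35, so both were mostly carried by the row that holds WT replicate 1. Emx2 gave -0.14 and -0.15. Pax8 changed sign (0.15 and -0.09), as did Irx1 (-0.30 and 0.53).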

How the data were processed

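Agilent Feature Extraction 10.7.1.1, per the file headers and the submitters' processing notes, measured 62976 spots on each of the 6 arrays. Per the headers these lie on 1 slide, share a scan date and have a grid that follows mm9. The deposited intensity values are the mean and local background signals and the processed signal, from which per the file headers background and spatial trend were removed before deposit, made from 0.2 µg of RNA with Cy3, per the labels' protocols. The authors' deposited table holds log2 values whose columns share their sorted values (to 0.000865) and a median of 5.73, and its tool is not stated in the sources used here; it served as an alternative. Scanner flags were also used, and 6 probes were left out for flags. Probes were named through RefSeq accessions (GRCm38.p6) for 32992 probes and by the files for 23607.

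The 75th percentile of an array was subtracted from its log2 processed signals. Probes well above background on at least 3 arrays were kept, and the probe with the highest mean stood for its gene. Differences were tested by lmFit and eBayes of limma 3.58.1 (R 4.3.3), and p-values were adjusted over all genes by Benjamini-Hochberg, after a test on simulated data. The number of arrays limits the precision. Members and lists were chosen with earlier results of these data known. Genes named were the 8 members, C3ar1, the 2 with the smallest p of each lineage list, and the closest genes by r, beside others noted in the text as named after their values were seen; a few single genes of the lists are not reported here. Probe placement in exons was not analysed here; coding positions were read from the sequences. Alternatives are given in the closing section. Replicate numbers were not used to pair the samples in the main fit, since the labels do not say what a number marks.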

Additional observations from a re-analysis of the deposited data

How the results depend on the processing

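Each difference, count and list median was recomputed under 19 other settings: the authors' table, quantile or median scaling, normexp (offset 50), the mean of a gene's probes, a filter on 6 arrays or none, trend and robust variances, array weights, slide row and replicate number as blocks, each array left out, and both end arrays left out. In all 19, limma called 0 genes at an adjusted p under 0.05, and Lhx1, Emx2, Foxi1 and Tfap2b kept their sign. Of 152 member values 11 changed sign. Trend and robust variances, both blocks and both filters left the difference of every member as it was. The mean of probes did so for factors with a single kept probe. Those values are among the 152 and did not test the sign. With array weights Hnf4a was -0.057, Irx1 0.11 and Pax2 0.017. Without WT replicate 1 and C3aR-/- replicate 2 together they were -0.13, 0.12 and 0.053. Over the arrays left out in turn Hnf4a lay between -0.037 and 0.28, Irx1 between -0.18 and 0.24, Pax2 between -0.15 and 0.0039, Pax8 between -0.026 and 0.17 and Foxi1 between 0.097 and 0.32. Members with an unadjusted p under 0.05 went from 0 to 1 (Foxi1) with array weights and to 1 without both end arrays. Over all 22741 genes such p-values also became more frequent, at 2115 and 2025 genes under these settings against 1111 in the main fit. The cause was not tested. The proximal tubule median was 0.0091 with array weights, -0.094 without both and 0.087 to 0.51 with arrays left out. The paralog median changed sign with no filter (0.017), normexp (0.012) and without both (0.028), and lay between -0.089 and 0.024 with arrays left out. Other list medians that moved were those of the distal convoluted tubule (0.047 with array weights, 0.024 without both, 0.084 to 0.23 with arrays left out), intercalated cells (0.17 with array weights, 0.11 to 0.18), nephric duct signalling (0.019 with array weights, 0.0042 with normexp, -0.12 to 0.0088) and other kidney transcription factors (0.12 with array weights, 0.10 without both, 0.00084 to 0.11). Genes with an unadjusted p under 0.05 numbered 2115 with array weights, 2025 without both, 1741 with the slide row as a block and 767 to 1523 with arrays left out.

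With the replicate block 0 genes were called, against 0 without it, and 1596 against 1111 had an unadjusted p under 0.05; it changed no call of a member. The deviations of same-numbered arrays correlated at 0.125, 0.406 and -0.093, and those of differently numbered arrays at -0.371 to 0.346. So few arrays cannot decide whether same-numbered samples were paired, and the labels do not say what a number marks. The signal limits Pax2 most, where 3 of 4 probes were not well above background.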
